A study of Mus musculus with 4 samples.

Results

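The laminins and the proteins that join them into basement membranes were followed here through 10 genes, Lama2, Lama4, Lama5, Lamb1, Lamb2, Lamc1, Nid1, Nid2, Hspg2 and Agrn. The members are all spots other than controls whose transcript identifier belongs to one of these genes. Every one of the 10 genes had a spot, and together they were represented by 18 probes, out of 22911 named genes with a spot on the array. In that study, hematopoietic progenitor cells (HPCs) of wild-type (Wt) mice carrying retroviral p210Bcr-Abl and GFP, which model chronic myelogenous leukemia, were placed under the skin of Wt or sipa1 KO (Sipa1-/-) hosts of the C57BL/6Ncr strain, aged 8 weeks. Each mouse received 15000 cells in Matrigel, and tumors were taken on day 12 from 5 mice per genotype. Mesenchymal stroma cells (MSCs) were sorted as cells lacking GFP, CD45, Ter119 and CD31, and CD8+ T cells as cells lacking GFP and bearing TCRβ and CD8. The comparison asked how the stroma and T cells of the same tumors differed when the host lacked Sipa1, which encodes a GTPase-activating protein for Rap1. All 4 groups therefore shared the tumor cells, the Matrigel and the day, the deletion was carried by every host cell rather than by stroma alone, and each group was measured on 1 array, so that no difference given here has a replicate check and none was tested.

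Basement membranes are thin sheets of extracellular matrix under epithelia and around vessels, nerve, muscle and fat cells. Laminins are their scaffold: each is a trimer of an α, a β and a γ chain, and many of them polymerize on cell surfaces bound to integrins and to dystroglycan. Nidogens bridge the laminin network to collagen IV, perlecan (Hspg2) and agrin (Agrn) are heparan sulfate proteoglycans that bind laminin and growth factors, and mesenchymal cells are a well-known source of many of these proteins. Matrigel is itself a laminin-rich basement membrane extract. The arrays measured RNA, and any effect of the Matrigel on these genes was not tested.

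Levels are given per probe as log2 of the background-corrected spot signal minus the array's 75th percentile, so that 0 is the array's own 75th percentile, and a difference of 1 is a 2-fold difference. A probe's level was compared only with the same probe on another array. Of 59305 spots other than controls, 60.3% to 65.3% were well above background, none was saturated, and probes printed on 10 spots had a median SD of 0.0401 to 0.0447 between spots. Both probes of Sipa1 were lower in the KO, from 3.05 to 1.46 and from 5.03 to 3.78 in MSCs, and from 3.43 to 1.39 and from 5.40 to 3.73 in CD8+ T cells, and whether they lie in the deleted part is not given in the sources used here. All 18 member probes were well above background on both MSC arrays, against 12 in Wt and 14 in Sipa1-/- CD8+ T cells.

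In the RefSeq annotation of mouse build GRCm38.p6 all 10 are protein coding. Lama2 spans chr10:26981285-27617191 and Lama4 chr10:38965515-39110188, Lama5 chr2:180176373-180225904, Lamb1 chr12:31265146-31329644, Lamb2 chr9:108479847-108490530 and Lamc1 chr1:153218922-153332786. Nid1 spans chr13:13437602-13512275, Nid2 chr14:19751257-19811787, Hspg2 chr4:137468751-137570630 and Agrn chr4:156165290-156197533. Windows from 250 bases before to 50 after the gene start were in the RefSeq promoter table for 7 of the members, with no entry for Lama4, Lamc1 and Nid2. The GC box letters GGGCGG, searched on both strands, were in 6 of these 7 windows and in 35.9% of 27025 windows of all genes, and the CCAAT letters were in 2 of 7 and in 37.9%. The TATAAA letters were in 0 of 7 and in 14.2% of all windows, and TGACTCA, the letters of an AP-1 site, in 0 of 7 and in 5.17%. Windows of Agrn, Lama5 and Hspg2 held 83.3%, 72.7% and 70.3% G and C against a median of 52.7% over all genes, and the Lamb2 window held 44%. The 5 stretches shown are the bases before the annotated gene, of 3 genes that were higher in Sipa1-/- cells of both types (Nid1, Lamb2, Hspg2) and of the 2 that were higher in MSCs and lower in CD8+ T cells (Lama5, Agrn), each on the gene's own strand with GC box and CCAAT letters in capitals, as read on either strand.
Nid1, chr13:13437352-13437601, plus strand: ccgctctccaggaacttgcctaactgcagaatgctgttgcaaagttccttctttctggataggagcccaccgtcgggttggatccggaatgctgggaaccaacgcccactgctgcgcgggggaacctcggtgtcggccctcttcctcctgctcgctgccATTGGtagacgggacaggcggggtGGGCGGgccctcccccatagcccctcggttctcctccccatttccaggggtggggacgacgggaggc
Lamb2, chr9:108479612-108479846, plus strand: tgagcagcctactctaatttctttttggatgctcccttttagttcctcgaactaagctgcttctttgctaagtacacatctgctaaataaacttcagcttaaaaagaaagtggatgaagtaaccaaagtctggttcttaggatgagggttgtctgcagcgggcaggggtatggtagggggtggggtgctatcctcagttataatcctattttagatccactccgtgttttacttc
Hspg2, chr4:137468553-137468750, plus strand: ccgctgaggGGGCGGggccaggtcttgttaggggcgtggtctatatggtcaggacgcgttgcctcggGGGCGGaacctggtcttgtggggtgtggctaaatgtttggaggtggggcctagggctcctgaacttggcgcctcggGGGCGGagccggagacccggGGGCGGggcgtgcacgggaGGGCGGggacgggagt
Lama5, chr2:180225905-180226109, minus strand: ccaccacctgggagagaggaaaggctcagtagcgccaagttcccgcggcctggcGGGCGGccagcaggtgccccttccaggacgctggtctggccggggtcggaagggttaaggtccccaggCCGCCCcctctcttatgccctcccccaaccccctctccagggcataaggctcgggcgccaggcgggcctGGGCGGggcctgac
Agrn, chr4:156197534-156197738, minus strand: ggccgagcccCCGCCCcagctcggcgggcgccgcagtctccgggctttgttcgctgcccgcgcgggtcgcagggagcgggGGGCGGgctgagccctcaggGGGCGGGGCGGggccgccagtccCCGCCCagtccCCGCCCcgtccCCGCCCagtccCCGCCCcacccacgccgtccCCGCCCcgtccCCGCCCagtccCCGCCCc
The Agrn stretch held 11 GC boxes, some overlapping, that of Hspg2 5, that of Lama5 3 and that of Nid1 1 beside 1 CCAAT, while that of Lamb2 held none. A match is a description of the letters and not of a bound site.

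The 18 probes shared a single direction in MSCs. All 18 were higher on the Sipa1-/- than on the Wt MSC array, by 0.44 to 2.46 on the log2 scale, and 16 were at least 2-fold higher. Both counts include the Nid2 probe and the bright Nid1 probe, whose local background was marked as uneven in this pair. Several probes belong to the same gene, and no share over all probes was computed. Of the 10 genes, 9 had a probe that passed every quality flag on both MSC arrays, and all 9 were higher, 7 of them at least 2-fold, where 51.8% of the 15298 genes measured in this pair were higher, 19.3% by 2-fold or more, and 11.3% lower by 2-fold or more. The median log2 ratio of the 9 genes was 1.65 against 0.04 over all genes measured. Probes of the same gene had a median SD of 0.14 in their log2 ratios in this pair, which describes disagreement between probes and not between animals. In sorted bulk RNA, fewer cells of a type and less RNA per cell cannot be told apart.

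**Figure D1:**
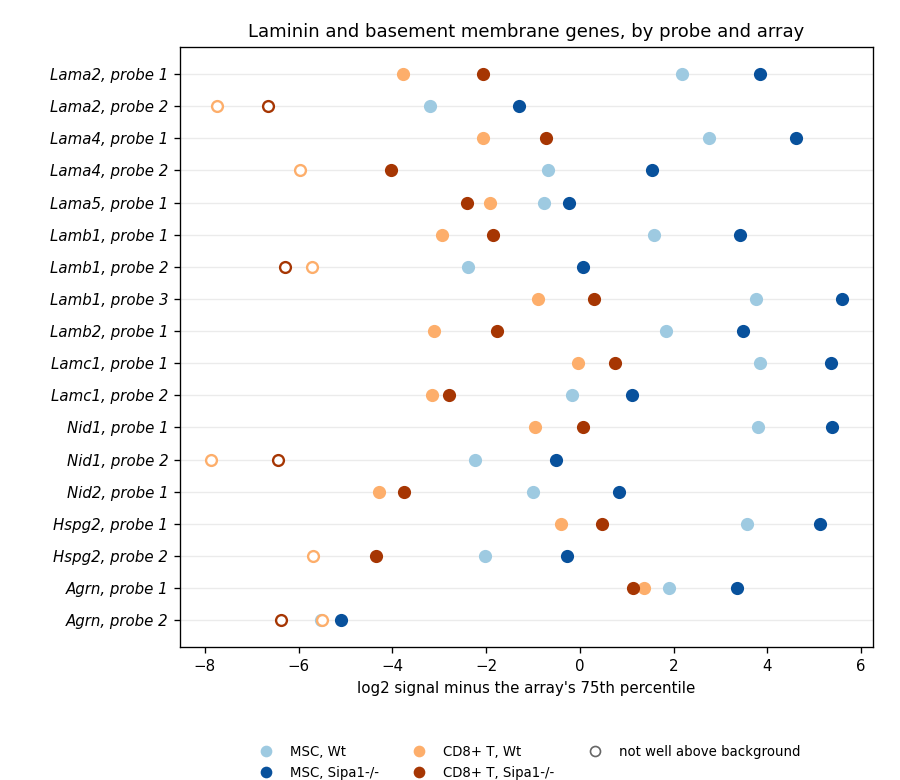
Level of each of the 18 probes on the 4 arrays, on the x axis as log2 signal minus the array's 75th percentile, with 1 point per array and open points where the probe was not well above background. Dark blue Sipa1-/- MSC points lie to the right of light blue Wt MSC points for all 18 probes, and the MSC points lie to the right of the CD8+ T points except for the dim second probe of Agrn on the Wt arrays.

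Among the laminin α chains, which carry the receptor-binding end of the trimer, Lama2 and Lama4 were at least 2-fold higher in Sipa1-/- MSCs and Lama5 was not. Lama2 encodes α2, the chain of muscle and Schwann cell basement membranes. Its brighter probe read 2.19 in Wt MSCs, 3.84 in Sipa1-/- MSCs, -3.77 in Wt CD8+ T cells and -2.06 in Sipa1-/- CD8+ T cells, and its dimmer probe read -3.20 and -1.29 in MSCs and was not well above background in either T cell array. Lama2 was thus 3.44-fold higher in Sipa1-/- than in Wt MSCs as the mean of both probes, and 3.27-fold higher in Sipa1-/- than in Wt CD8+ T cells by the brighter probe. Both MSC arrays lay above both T cell arrays, with a log2 ratio of 5.96 in Wt and 5.90 in Sipa1-/- tumors, so that the cell type ratio was nearly the same in the 2 genotypes.

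Lama4 encodes α4, found around vessels, fat and muscle cells. Its brighter probe read 2.76 in Wt MSCs, 4.61 in Sipa1-/- MSCs, -2.07 in Wt CD8+ T cells and -0.72 in Sipa1-/- CD8+ T cells. The other probe read -0.68 and 1.55 in MSCs, and in the T cells it was not well above background in Wt and -4.03 in Sipa1-/-. The gene was 4.09-fold higher in Sipa1-/- MSCs, a log2 ratio of 2.03, and 2.54-fold higher in Sipa1-/- CD8+ T cells by the brighter probe, while the other probe allowed only a bound of at least 2.88-fold. In Wt tumors Lama4 was 28.4-fold higher in MSCs than in CD8+ T cells.

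Lama5 encodes α5, an epithelial and endothelial chain, and its 1 probe behaved differently. It read -0.76 in Wt MSCs, -0.23 in Sipa1-/- MSCs, -1.92 in Wt CD8+ T cells and -2.40 in Sipa1-/- CD8+ T cells. The MSC ratio was 1.44-fold and did not reach 2-fold, and the T cell log2 ratio was -0.48, in the opposite direction. Among all genes measured, the MSC ratio of Lama5 stood at percentile 68.5 and its T cell ratio at percentile 4.30. Its excess in MSCs over T cells was 2.23-fold in Wt and 4.50-fold in Sipa1-/- tumors, small beside those of Lama2 and Lama4.

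Lamb1 and Lamb2 encode β1, which is widespread, and β2, of muscle, nerve and kidney. The brightest Lamb1 probe read 3.76 in Wt MSCs, 5.58 in Sipa1-/- MSCs, -0.89 in Wt CD8+ T cells and 0.30 in Sipa1-/- CD8+ T cells. The next read 1.58, 3.43, -2.94 and -1.86 in the same order, and the dimmest read -2.39 and 0.07 in MSCs and was not well above background in either T cell array. All 3 probes were at least 2-fold higher in Sipa1-/- MSCs, with log2 ratios of 1.83, 1.85 and 2.46, and a mean of 2.04, or 4.13-fold, beside 2.03 for Lama4, an order that turned with normexp and with the brightest probe alone. Between the T cell arrays Lamb1 was 2.20-fold higher in Sipa1-/- as the mean of the 2 probes that could be read there.

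The 1 probe of Lamb2 read 1.85 in Wt MSCs, 3.48 in Sipa1-/- MSCs, -3.10 in Wt CD8+ T cells and -1.77 in Sipa1-/- CD8+ T cells. The gene was 3.11-fold higher in Sipa1-/- MSCs and 2.51-fold higher in Sipa1-/- CD8+ T cells. It was 30.9-fold higher in MSCs than in CD8+ T cells of Wt tumors, against 23.9-fold for Lamb1. Both β chains therefore showed the order Sipa1-/- MSC, Wt MSC, Sipa1-/- T cell, Wt T cell in every probe read on all 4 arrays.

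Lamc1 encodes γ1, the γ chain of most laminins, to which nidogen binds. The brighter probe read 3.84 in Wt MSCs, 5.35 in Sipa1-/- MSCs, -0.03 in Wt CD8+ T cells and 0.76 in Sipa1-/- CD8+ T cells, and the other read -0.17, 1.1, -3.16 and -2.79. Both probes were above 2-fold in MSCs, with a mean of 2.63-fold. Neither reached 2-fold in CD8+ T cells, and their log2 ratios of 0.79 and 0.37 gave 1.50-fold.

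The nidogens link the laminin network to collagen IV. The bright probe of Nid1 read 3.80 in Wt MSCs, 5.39 in Sipa1-/- MSCs, -0.96 in Wt CD8+ T cells and 0.08 in Sipa1-/- CD8+ T cells, but on the Wt MSC array its local background was marked as uneven. The dim probe read -2.24 and -0.51 in MSCs and was not well above background in T cells. The dim probe, which passed all flags in MSCs, gave 3.32-fold, and the bright probe a log2 ratio of 1.59 with the mark set aside, so both were above 2-fold. In CD8+ T cells the bright probe was 2.05-fold higher in Sipa1-/-, close to the 2-fold line.

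The single probe of Nid2, which encodes the other nidogen, read -1.0 in Wt MSCs, 0.83 in Sipa1-/- MSCs, -4.28 in Wt CD8+ T cells and -3.75 in Sipa1-/- CD8+ T cells, well above background on every array. Its local background was marked as uneven on all 4 arrays, so Nid2 entered no count of genes. With the mark set aside, its log2 ratios were 1.83 in MSCs and 0.53 in CD8+ T cells.

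Perlecan and agrin, the heparan sulfate proteoglycans, differed from each other. The brighter Hspg2 probe read 3.57 in Wt MSCs, 5.13 in Sipa1-/- MSCs, -0.39 in Wt CD8+ T cells and 0.47 in Sipa1-/- CD8+ T cells. The other read -2.01 and -0.27 in MSCs, and in T cells it was not well above background in Wt and -4.34 in Sipa1-/-. Hspg2 was 3.15-fold higher in Sipa1-/- MSCs, with both probes above 2-fold, and 1.82-fold higher in Sipa1-/- CD8+ T cells by the brighter probe. The dimmer probe put the T cell ratio at a bound of at least 2.33-fold, so the 2 probes fell on either side of 2-fold.

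Agrn was the member whose 2 cell types lay closest in Wt tumors. Its bright probe read 1.90 in Wt MSCs, 3.35 in Sipa1-/- MSCs, 1.38 in Wt CD8+ T cells and 1.13 in Sipa1-/- CD8+ T cells, so that the Wt MSC and Wt T cell arrays differed by only 0.52. The other probe read -5.53 and -5.09 in MSCs, near the lowest signals called well above background there (-5.86 and -5.79), and was not well above background in T cells. The bright probe was more than 2-fold higher in Sipa1-/- MSCs (log2 ratio 1.45) and the near-background probe was not (0.44), and their mean, 1.92-fold, left Agrn outside the 7 genes counted. Between T cell arrays the bright probe had a log2 ratio of -0.25, below 0 as for Lama5.

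**Figure D2:**
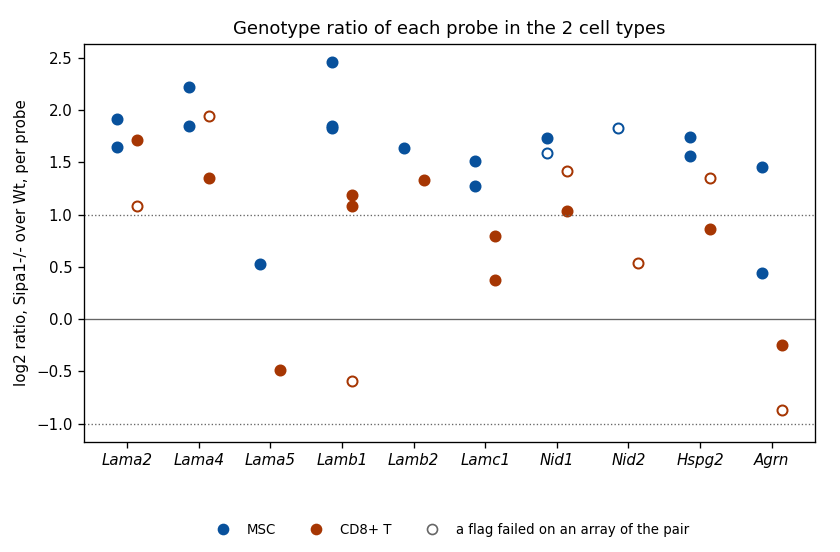
Log2 ratio of Sipa1-/- over Wt for each probe of the 10 genes, with MSCs in blue, CD8+ T cells in brown, dotted lines at 2-fold in either direction and open points where a quality flag failed on an array of the pair. All 18 MSC points lie above 0, while 4 of the 18 T cell points, those of Lama5, Agrn and the dimmest Lamb1 probe, lie below it.

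Most of the same genes were also higher on the Sipa1-/- than on the Wt CD8+ T array. Of the 9 members measured there, 7 were higher and 2 lower in Sipa1-/-, and 5 (Lama2, Lama4, Lamb2, Lamb1 and Nid1) were at least 2-fold higher, where 46.1% of the 14339 genes measured in this pair were higher, 2.66% by 2-fold or more, and 1.4% lower by 2-fold or more. The median log2 ratio of the 9 was 1.04 against -0.02 over all genes. The count of 5 became 3 when arrays were scaled to their medians and 0 with normexp background correction, where 1.98% and 0.75% of all genes were at least 2-fold higher. Over all 18 probes, read or not, 14 were higher and 10 at least 2-fold higher, and no share over all probes was computed. The 10 include the dim probes of Lama2 and Nid1, not well above background on either T cell array. They also include the dim probes of Lama4 and Hspg2, not well above background in Wt, so these ratios depend on signals near background.

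Genes that mark fibroblasts were also read in the CD8+ T arrays. All 10 fibroblast markers were well above background on both, all 10 were higher in Sipa1-/- and 9 were at least 2-fold higher, with a median log2 ratio of 1.57. Over all genes measured in this pair, 46.1% were higher and 2.66% at least 2-fold higher. Their summed level, in units of the 75th percentile, was 206 in Wt and 300.1 in Sipa1-/-, of which most in Wt was Thy1, a gene that T cells also express, and without Thy1, left out after its values were seen, it was 40.8 and 124.2, against 969 and 1496 in MSCs. The collagen gene Col1a2 read 4.24 and 5.77, and Dcn, which encodes decorin, read 2.63 and 4.31. T cell markers differed less: 10 of 10 were well above background on both arrays, their median log2 ratio was -0.01, their lowest and highest were -0.20 and 0.16, and Cd8b1 read 7.29 and 7.41. The part of RNA from fibroblasts in the T cell values of the laminin genes was not tested.

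**Figure D3:**
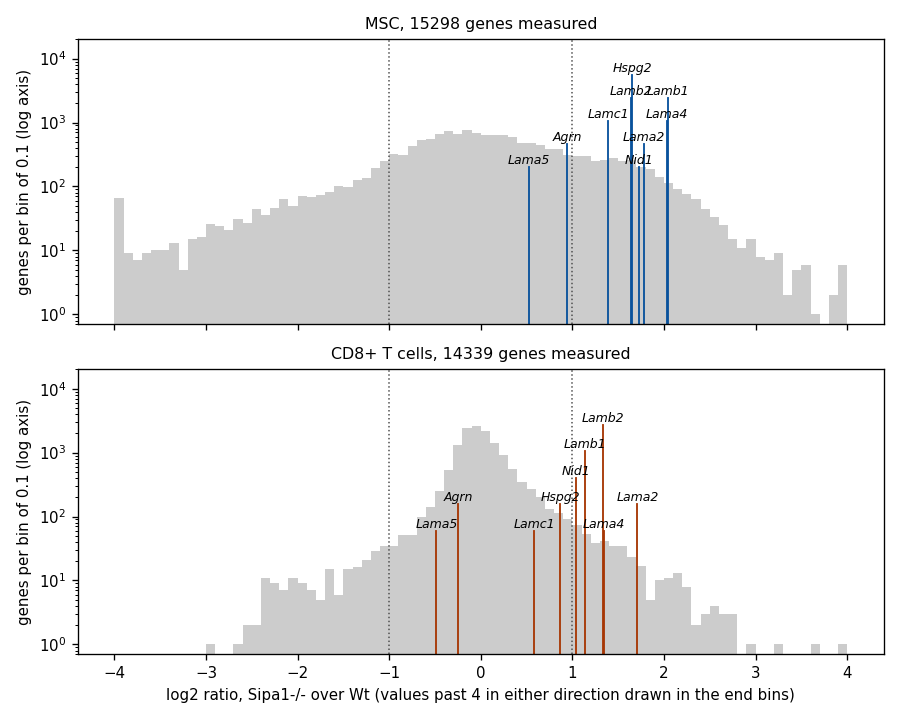
Number of genes (log axis) by log2 ratio of Sipa1-/- over Wt in bins of 0.1, in grey, for the 15298 genes measured in MSCs above and the 14339 measured in CD8+ T cells below, with the 9 measured members as labelled lines whose heights only separate the labels. In MSCs 7 members lie past the dotted 2-fold line on the right, and in CD8+ T cells 5 lie past it while Lama5 and Agrn lie left of 0.

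Between cell types, most of the members stood higher in MSCs. In Wt tumors 8 members could be measured in both cell types, and all 8 were higher in MSCs, 7 of them at least 2-fold, where 46.6% of 14225 genes were higher, 17.3% by 2-fold or more, and 12.8% lower by 2-fold or more. Their median log2 ratio was 4.27 and that of all genes -0.06. In order, the log2 ratios were 5.96 for Lama2, 4.95 for Lamb2, 4.83 for Lama4, 4.58 for Lamb1, 3.97 for Hspg2, 3.43 for Lamc1, 1.16 for Lama5 and 0.52 for Agrn. Probes of the same gene had a median SD of 0.14 in this pair. The SD was 0.09 for the 2 probes of Lamb1 and 0.62 for those of Lamc1, at 2.99 and 3.87. Lamb2 and Lama4, each read by 1 probe, lay closer than that median, and the order of neighbours was not tested.

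In Sipa1-/- tumors 9 members could be measured and all 9 were at least 2-fold higher in MSCs, where 42.9% of 14300 genes were higher, 21.9% by 2-fold or more, and 18.7% lower by 2-fold or more, with a median log2 ratio of 5.25 against -0.18 over all genes. Lama2 (5.90), Lama4 (5.45), Nid1 (5.31), Lamb1 (5.28) and Lamb2 (5.25) led, Hspg2 (4.37) and Lamc1 (4.24) followed, and Agrn (2.22) and Lama5 (2.17) were last as in Wt. Probes of the same gene had a median SD of 0.21 in this pair. Nid1, Lamb1 and Lamb2 lay closer than that, as did Agrn and Lama5, and the order of neighbours was not tested. Of the 6 probes that were not well above background in Wt T cells, 5 gave bounds in the same direction, and the dim Agrn probe, at a difference of -0.02, gave none. In Wt tumors the bounds were at least 29.6-fold for the other Lama4 probe, 11.7-fold for that of Hspg2, 9.97-fold for that of Nid1, 9.0-fold for that of Lamb1 and 5.12-fold for that of Lama2.

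**Figure D4:**
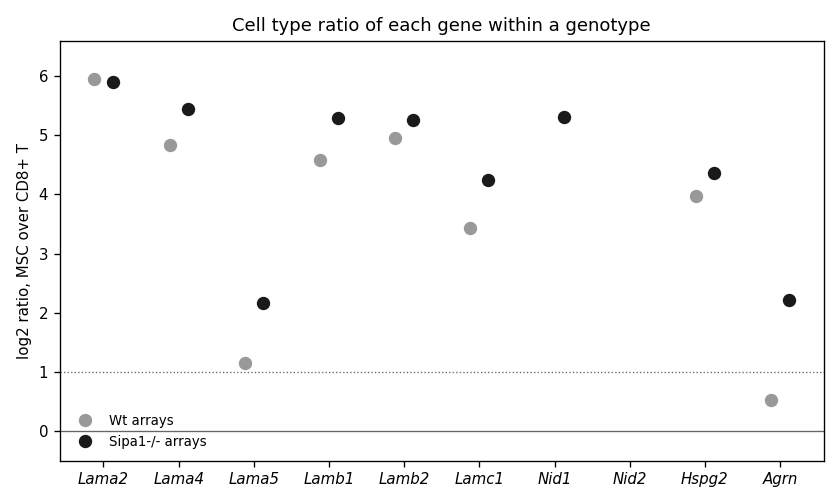
Log2 ratio of MSCs over CD8+ T cells for each member, in Wt tumors in grey and in Sipa1-/- tumors in black, with a dotted line at 2-fold and no point where no probe passed the flags on both arrays. Agrn in Wt tumors, at 0.52, is the 1 point under the line, and Lama5 and Agrn lie below the other members in both genotypes.

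The genotype ratio was set side by side in the 2 cell types with the same probes, for the 8 members read on all 4 arrays. The log2 ratio in MSCs exceeded that in CD8+ T cells by 1.70 for Agrn, 1.01 for Lama5, 0.81 for Lamc1, 0.70 for Lamb1, 0.70 for Hspg2, 0.50 for Lama4 and 0.31 for Lamb2, while for Lama2 the difference was -0.06. The median was 0.70 against -0.02 over 13766 genes. For 2 of the 8 the difference was at least 1, as for 12.9% of all genes, and for none was it -1 or lower, as for 11.3%. With 1 array a group, this difference was not tested.

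Other genes of the basement membrane were read in MSCs from 3 lists. Beside their counts, 51.8% of all genes measured in MSCs were higher in Sipa1-/- and 19.3% at least 2-fold higher. The 4 further laminin chains on the list were all higher in Sipa1-/- MSCs and 3 were at least 2-fold higher, with a median log2 ratio of 1.43. Lama1, the α chain of early embryonic membranes and of Matrigel, read -4.88 in Wt and -1.77 in Sipa1-/- MSCs and was not well above background in T cells, a log2 ratio of 3.11 from a dim start. Lamb3, of the epidermal laminin, read -1.01 and 0.59 by its brightest probe, with a gene log2 ratio of 1.69. Lamc3 read -4.45 and -3.29, a ratio of 1.16, and Lama3 read -5.48 and -4.55, a ratio of 0.93, both dim.

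Of 23 other basement membrane components, 17 were measured in MSCs, all 17 were higher in Sipa1-/- and 13 at least 2-fold higher, with a median of 1.35. The greatest log2 ratios were 2.47 for Frem1, a matrix protein of the epidermal junction, 2.21 for Pxdn, the peroxidase that cross-links collagen IV, 2.13 for Smoc2, a calcium-binding matrix protein, and 1.81 for Fbln2, a fibulin that binds laminin and nidogen. The chief collagen IV chains, named here after their values were seen, were below 2-fold: Col4a1 read 2.81 and 3.74, a log2 ratio of 0.93, and Col4a2 read 2.43 and 3.29, a ratio of 0.86. Among the T cell arrays 10 of the 23 were measured, 8 were higher and 4 at least 2-fold higher, with a median of 0.25. Over all genes measured in that pair, 46.1% were higher and 2.66% at least 2-fold higher.

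The third list, of 13 receptors of laminin, perlecan and agrin and of receptor partners, was measured in full in MSCs. Its Sgcb, Sgcd, Sgce and Sspn are partners of dystroglycan in its complex and not themselves laminin receptors. Of the 13 genes 12 were higher in Sipa1-/-, 7 at least 2-fold, with a median log2 ratio of 1.22, and Sgcd, Sspn and Sgce were among the 7. Members of the dystroglycan complex, which ties laminin to the cytoskeleton, were among the 4 with the greatest ratios, with 2.01 for Sgcd, 1.85 for Sspn and 1.78 for Sgce, next to 1.64 for Itga7, the muscle laminin integrin. The 1 gene of the list that was lower was the receptor gene Itga6, named after its values were seen, whose log2 ratio was -1.23. Among the T cell arrays 9 of the 10 genes of this list that were measured were higher and 1, Sgce, was at least 2-fold higher, with a median of 0.17. The shares over all genes in that pair were 46.1% and 2.66%.

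**Figure D5:**
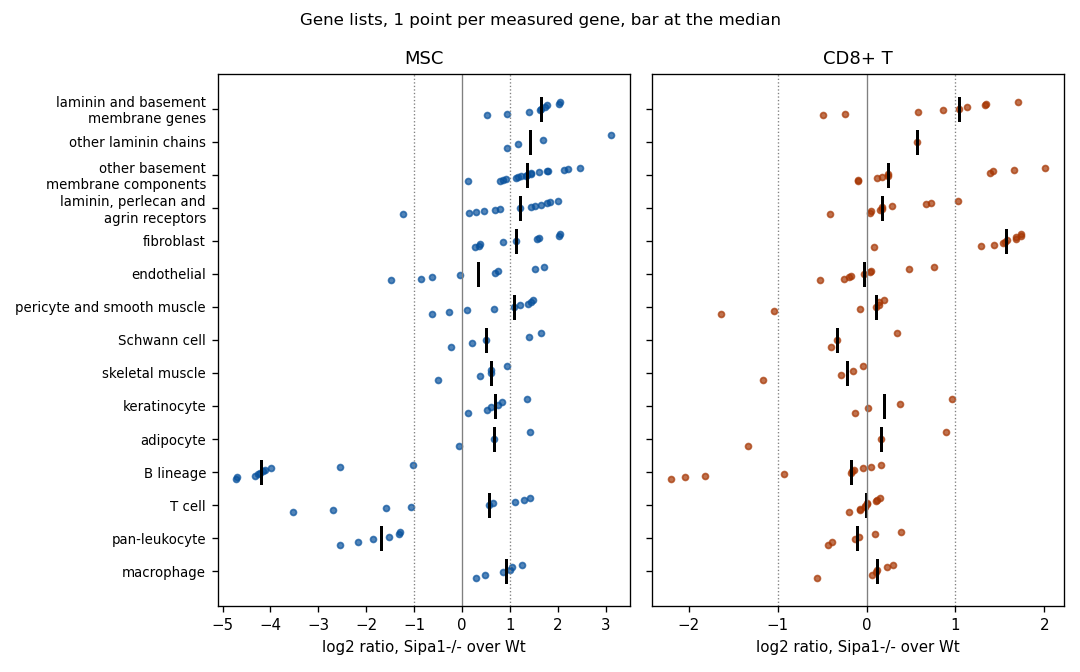
Log2 ratio of Sipa1-/- over Wt for each measured gene of the members, the 3 pathway lists and the 11 lists of cell type markers, in MSCs on the left and CD8+ T cells on the right, with a bar at each list's median and dotted lines at 2-fold. In MSCs the 4 basement membrane rows have medians of 1.22 to 1.65 and the B lineage row lies at -4.19, and in CD8+ T cells the fibroblast row, at 1.57, has the highest median.

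The MSC sorts were checked for their own and other cell types. Over all genes measured in MSCs, 51.8% were higher in Sipa1-/-, 19.3% by 2-fold or more, and 11.3% were lower by 2-fold or more. All 10 fibroblast markers were well above background on both MSC arrays, with a summed level of 1012 in Wt and 1589 in Sipa1-/-, and 9 of 9 measured were higher in Sipa1-/- with a median log2 ratio of 1.14, 5 of them at least 2-fold. B lineage markers had a summed level of 711 in Wt and 44.5 in Sipa1-/- MSCs, all 10 measured were at least 2-fold lower, the median was -4.19, and Vpreb1, a chain of the pre-B receptor, read 7.57 and 3.45. All 6 pan-leukocyte markers were at least 2-fold lower as well, with summed levels of 140.2 and 36.3 and a median of -1.69, and Ptprc, shown because it encodes the CD45 that the sort removes, read 2.68 and 1.18. T cell markers were mixed: 5 of 9 measured were higher, 3 of them at least 2-fold, and 4 were at least 2-fold lower, with a median of 0.56. The summed level of T cell markers was 27.5 in Wt and 9.14 in Sipa1-/- MSCs. All 6 macrophage markers were higher, with a median of 0.92. Genes of the B lineage and of all leukocytes thus read higher on the Wt than on the Sipa1-/- MSC array, and the part of their RNA in the laminin ratios was not tested.

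Markers of other cell types that make basement membranes were also read in MSCs. At least 2-fold higher in Sipa1-/- were 5 pericyte and smooth muscle, 2 endothelial, 2 Schwann cell, 1 keratinocyte, 1 adipocyte and 0 skeletal muscle markers. Of these lists only the endothelial had a marker at least 2-fold lower, with 1. The shares over all genes were 19.3% and 11.3%. In MSCs the median log2 ratio was 1.09 for 9 of 9 pericyte and smooth muscle markers (7 higher), 0.33 for 8 of 10 endothelial markers (4 higher), 0.50 for 5 of 8 Schwann cell markers (4 higher), 0.60 for 5 of 8 skeletal muscle markers (4 higher), 0.68 for 6 of 8 keratinocyte markers (6 higher) and 0.68 for 3 of 6 adipocyte markers (2 higher). Endothelial markers summed to 6.48 in Wt and 4.98 in Sipa1-/- MSCs, but to 1.33 and 2.15 without Egfl7, with Tie1 not well above background on either array, and Cldn5 not on the Wt array. Skeletal muscle markers summed to 64.4 and 105.4, with Pax7 and Myf5 not well above background on either, and keratinocyte markers to 8.57 and 8.68, or to 3.0 and 4.76 without Trp63, with Krt1 and Dsg3 not. Pericyte and smooth muscle markers summed to 23.3 in Wt and 22.2 in Sipa1-/- MSCs, or to 6.52 and 11.2 without Mcam. Schwann cell markers summed to 7.20 and 4.17, or to 0.50 and 1.12 without Mbp, and adipocyte markers to 0.87 and 1.92. Egfl7, Trp63, Mcam and Mbp, each the brightest of its list in MSCs, were left out after their values were seen. In CD8+ T cells these 6 lists had medians between -0.33 and 0.20, and the part of these cells in the laminin values was not tested.

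Each gene read on all 4 arrays was centred on its own mean, and its distance to the members' median profile was taken over the 4 arrays. That profile was 1.46 in Wt MSCs, 3.15 in Sipa1-/- MSCs, -2.81 in Wt CD8+ T cells and -1.79 in Sipa1-/- CD8+ T cells. Hspg2 (distance 0.33), Lamb1 (0.35), Lama4 (0.53) and Lamb2 (0.54) lay nearest, Lamc1 (0.86) and Lama2 (1.41) further, and Lama5 (3.24) and Agrn (3.36) far from it. Of 12881 other genes, the 5 nearest were Slc4a3, an anion exchanger, at 0.044, Efemp2, an elastic fibre protein, at 0.064, the kinase gene Dclk1 at 0.082, the collagen VI gene Col6a3 at 0.10 and the vasopressin receptor gene Avpr1a at 0.11. The likeness rests on 4 arrays.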

How the data were processed

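Tumor MSCs and CD8+ T cells of Wt and Sipa1-/- mice were each measured on 1 Agilent 1-colour array (Cy3), 4 in all. The deposited intensity values are scanner signals that the authors' software had corrected for background, with no scaling between arrays, and the file headers name Feature Extraction 12.0.3.1 where the labels name 9.1. The authors' series matrix holds the same intensities times 1 constant per array, whose origin is not given in the sources used here. Groups came from the labels, and each has 1 array, so no test, SD or p-value was computed between groups.

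Spots of a probe were averaged after log2 of the processed signal minus the 75th percentile over spots other than controls. A gene was the mean of its probes that passed, on every array compared, the flags named in the study's methods (not saturated, even spot and local background, positive and significant, well above background), and "measured" means that at least 1 probe did. A ratio of at least 2-fold was called. Named are every member and listed laminin chain (1 item is not reported here), 4 genes of each other pathway list by MSC ratio, up to 3 bright markers a list and the 5 nearest genes. A probe well above background on 1 side only gave a bound: its level against the lowest signal called well above background on the other array, or its own signal there if higher. Transcript identifiers were named through RefSeq tables, which gave 57.6% of spots a symbol, and strand and promoter sequences are RefSeq's (GRCm38.p6). Members and lists were chosen with earlier results of these data known.

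Alternatives were other scalings (median, quantile, probes detected on all arrays, series matrix), normexp background correction with offset 50 on the median spot signal, other flags, the brightest probe and brighter genes only. Python 3.11.15, pandas 2.3.3, R 4.3.3 and limma 3.58.1 were used, and the scripts were tested on simulated data. The number of arrays limits the precision.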

Additional observations from a re-analysis of the deposited data

Results flagged for a closer look

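2 members differed between genotypes in opposite directions in the 2 cell types. Lama5 had a Sipa1-/- over Wt log2 ratio that was 0.53 for the MSC arrays and -0.48 for the T cell arrays, a difference of 1.01. Agrn, by the 1 probe read on all 4 arrays, had 1.45 and -0.25, a difference of 1.70. For both, the Sipa1-/- array was higher in the 1 pair of MSC arrays and lower in the 1 pair of T cell arrays, and the difference was not tested.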

How the results depend on the processing

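No measured member changed the sign of its log2 ratio in the 4 comparisons of 2 arrays, and no median of the members in these, or of the 3 pathway lists in MSCs, changed sign under the alternatives tried. Alternatives were not run for the cell type lists, for the pathway lists in other comparisons or for single members' differences of ratios. No paired analysis was possible because each group has a single array, numbered 1. Scaling to array medians, the series matrix constants and normexp moved the members' median log2 ratio in MSCs from 1.65 to 1.51, 1.86 and 1.43, in CD8+ T cells from 1.04 to 0.89, 1.17 and 0.79, between cell types in Wt from 4.27 to 4.04, 4.73 and 3.81, and in Sipa1-/- from 5.25 to 5.03, 5.78 and 4.41. In the same order the MSC median went from 1.35 to 1.21, 1.56 and 0.83 for other basement membrane components, from 1.43 to 1.29, 1.63 and 0.86 for other laminin chains, and from 1.22 to 1.08, 1.42 and 0.63 for receptors and their partners. The first 2 settings add 1 constant per comparison and also shift the median of all genes, from 0.04 to -0.10 and 0.25 in MSCs, from -0.02 to -0.17 and 0.11 in CD8+ T cells, from -0.06 to -0.29 and 0.39 between cell types in Wt and from -0.18 to -0.41 and 0.34 in Sipa1-/-. Without flags the medians were 0.84 in CD8+ T cells, 3.99 between cell types in Wt and 4.92 in Sipa1-/-, now over 10 genes. With only the brighter genes kept (above the median signal) they were 0.31 in CD8+ T cells over 2 members and 3.97 between cell types in Wt over 5. Of these 5 members 4 were at least 2-fold higher, beside 12.1% of all genes kept. The median of other basement membrane components in MSCs was then 1.19. The difference between cell types, 0.70, became 0.86 under quantile normalization and 0.55 with flags asked of 1 array. The 5 members called in CD8+ T cells became 3 with median scaling, 0 with normexp and 0 with the brighter genes, where 2 members stayed. Over all genes the share at least 2-fold higher went from 2.66% to 1.98%, 0.75% and 0.93% in the same order. For normexp the cause was not tested. The share of called genes that were higher was 63.1% in MSCs and 74.1% with the series matrix constants, in CD8+ T cells 65.5% and 76.3%, 52.5% with median scaling, 52.4% with normexp and 48.9% among brighter genes, between cell types in Wt 57.4%, 76.6% with the constants and 45.5% with median scaling, and in Sipa1-/- 54.0%, 76.3% and 42.9%. Signal limits the T cell values most, where 4 to 6 of 18 member probes were not well above background.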
